A study of Solanum lycopersicum with 4 samples.

Results

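In floral apices and closed buds of tomato (Solanum lycopersicum), 12758 of 33976 genes reached a set minimum level in both control libraries. Of these, 35 had transcript levels in both libraries of miR156-overexpressing plants that were at most 0.5 of the level in either control library. The series holds RNA-seq of 2 control libraries, labelled MT (commonly short for Micro-Tom, a dwarf cultivar), and 2 libraries labelled 156OE, which are MT plants that overexpress the microRNA miR156. Both genotypes share the MT background, while plant age, the promoter behind the overexpression and the number of transgenic lines were not given in the sources used here. Labels name RNA replicates without saying that they came from separate plants, so the spread between libraries may be technical. Levels are given as CPM, that is, reads assigned to a gene per 1000000 assigned reads of the library. A gene was taken when it had at least 10 CPM in both MT libraries, which 12758 genes did, and when its higher 156OE value was at most 0.5 of its lower MT value. The 35 genes are 0.274% of those 12758. The genes were chosen by these same CPM values, so the levels below describe them and carry no test.

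miR156 is a conserved plant microRNA that pairs with the messenger RNAs of SBP-box transcription factors and lowers their amount or translation. SBP-box factors promote the passage from juvenile to adult growth and to flowering in many plants. In tomato the miR156 and SBP-box module is also known for effects on inflorescence branching, on the ovary and on fruit. The files give gene IDs of the Solyc type without names, where the digits before the letter g name the chromosome and the last 6 digits number the gene. Names used below were recalled from published nomenclature and kept where the symbol lay on the same chromosome and at a like relative place in RefSeq's gene table (assembly SLM_r2.1), so a name is less certain than its ID.

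The MT libraries held 11203505 and 9369713 assigned reads, 156OE replicate 1 held 8440384 and 156OE replicate 2 held 1685657. A level of 10 CPM thus stood for 112 and 93.7 reads in MT, 84.4 reads in 156OE replicate 1 and 16.9 reads in 156OE replicate 2. The median gene with at least 10 CPM in MT was 0.02 (log2) below the MT mean in 156OE replicate 1 and 0.21 below it in 156OE replicate 2. On library sizes scaled by TMM these medians were 0.01 and 0.03 below, and 29 of the 35 genes still met the rule. Marker lists also differed between the 156OE libraries. The summed level of 13 floral organ MADS-box genes, 9 of them at 10 CPM or more in both MT libraries, was 404 and 397 CPM in MT against 524 CPM (replicate 1) and 215 CPM (replicate 2) in 156OE. In 156OE replicate 1 CMB1, AGL6 and the nearly silent MBP3 were below both MT values, and J2 and RIN between them. In replicate 2 all but AGL11, without reads in any library, were below both. For 9 meristem and organ boundary genes, 8 of them at that level, the sums were 419, 408, 448 and 319 CPM in the same order. TKN2 (Solyc02g081120) alone gave 118, 144, 170 and 129 CPM. In 156OE replicate 1 TKN2 and CLV3 were above both MT values, CLV1 and LS below both and the others between them. For 8 photosynthesis genes, all at that level, they were 1133, 1170, 1488 and 1337 CPM. Of these sums RBCS3 (Solyc02g085950) alone gave 136, 131, 233 and 472 CPM. In 156OE replicate 2, rbcS1, Cab-3C, PSBS, PSBO and PSBP were below both MT values, SBPASE above both and PETE between them. For 3 pollen, anther and style genes, none at that level, the sums were 7.23, 6.404, 4.15 and 2.37 CPM. Of these LAT56 alone gave 6.16, 4.59, 1.66 and 1.19 CPM. Style2.1 was above both MT values in 156OE replicate 1 and between them in replicate 2. The pollen gene LAT52 was at 0 in both 156OE libraries and in MT replicate 1, and had 1 read in MT replicate 2. In whole tissue, fewer cells of a type and less RNA per cell cannot be told apart, and the part of these shifts in the levels below was not tested.

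**Figure D1:**
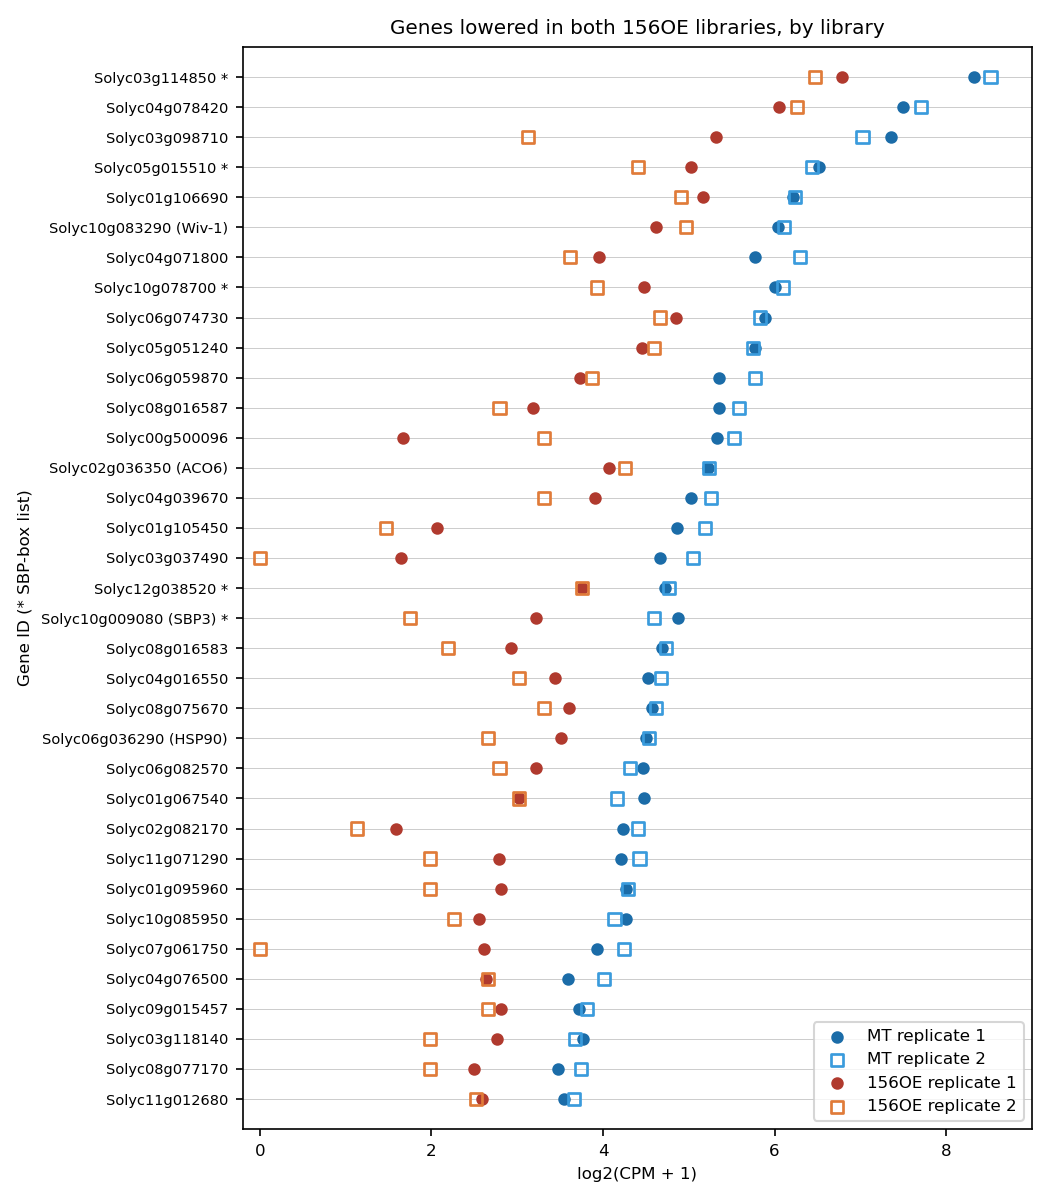
Level of each of the 35 lowered genes in each library, as log2(CPM + 1), ordered by the MT mean; filled circles are replicate 1, open squares replicate 2, blue is MT, red and orange 156OE, and stars mark the SBP-box list. The rule places both 156OE points left of both MT points in every row, and the distance between the 156OE points varies from gene to gene.

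Since 27 of the 35 genes are on no list, a larger group among them would not be seen. Among the lists used, that of the SBP-box family held the most lowered genes. Of 17 IDs listed for this family, 12 reached 10 CPM in both MT libraries and 5 of these 12 (41.7%) were among the 35 genes, beside 0.274% of all genes at that level. The list was written with results on some of its members known, so its count is not independent evidence of a direction. Values in 156OE that were both below the lower MT value, by whatever amount, occurred in 33.1% of the 12758 genes. Per transcript length, the highest level of the 5 was that of Solyc03g114850, at 147 and 169 TPM in MT.

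Solyc03g114850 had the highest CPM of all 35 genes, with 319.9 and 365 CPM in MT and 109 and 87.9 CPM in 156OE. All 4 values rest on 148 reads or more, and 156OE was at 0.319 and 0.256 of the MT mean. edgeR estimated the log2 difference as -1.70 ± 0.13 (SE). Such SEs come from 2 libraries per genotype, and edgeR called none of the 35 genes lower at an adjusted p under 0.05. Solyc05g015510 had 90.7 and 85.3 CPM in MT and 31.5 and 20.2 CPM in 156OE. edgeR estimated the log2 difference as -1.64 ± 0.17 (SE), close to that of the more abundant Solyc03g114850. Solyc10g078700 had 63.2 and 67.4 CPM in MT and 21.3 and 14.2 CPM in 156OE, or 0.327 and 0.218 of the MT mean. In these 3 genes the upper limit of the 95% Poisson interval of 156OE replicate 2 stayed under 0.5 of the lower MT value, for example 28.2 CPM against 42.7 CPM in Solyc05g015510. Such intervals cover counting error only.

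SBP3 (Solyc10g009080) was the least even of the group, with 28.3 and 23.2 CPM in MT, and 156OE values of 8.29 CPM (replicate 1) and 2.37 CPM (replicate 2). The last value rests on 4 reads, with a 95% Poisson upper limit of 6.08 CPM. Solyc12g038520 was the most even and the closest to the limit of the rule. It had 25.4 and 26.3 CPM in MT and 12.5 and 12.5 CPM in 156OE, 0.483 of the MT mean in each, with an upper limit of 19.0 CPM in 156OE replicate 2 that exceeds 0.5 of the lower MT value (12.7 CPM). It was the SBP-box ID that no longer met the rule on TMM-scaled library sizes.

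The other 12 listed SBP-box IDs show how the family divided. Of the 7 that reached 10 CPM in MT, the closest to the limit were Solyc05g012040, with 15.4 and 16.9 CPM in MT and 8.41 and 7.71 CPM in 156OE, and Solyc05g015840, with 130.02 and 144 CPM in MT and 85.5 and 58.7 CPM in 156OE. Both were below MT in each 156OE library without being halved in both. Solyc01g068100, with an MT level near that of Solyc03g114850, had 291 and 295 CPM in MT, and 156OE values of 217 CPM (replicate 1) and 314 CPM (replicate 2), so its groups overlapped. Solyc10g018780 also overlapped, at 31.6 and 40.8 CPM in MT and 36.0 and 35.0 CPM in 156OE. Solyc01g090730 was above MT in both, at 11.8 and 12.7 CPM in MT and 16.0 and 14.8 CPM in 156OE. Solyc01g080670 and Solyc05g053240 were at 0.878 and 0.822, and at 0.864 and 0.779 of their MT means. Among the 5 IDs too low for the rule, Solyc07g062980 was at 0.103 and 0.104 of the MT mean, with 5.80 and 5.66 CPM in MT, from 65 and 53 reads, and 5 reads and 1 read in 156OE. SPL-CNR (Solyc02g077920) was at 0.835 and 0, Solyc04g064470 at 0.912 and 0.581, Solyc04g045560 at 0.611 and 0.340 and Solyc07g053810 at 0.554 and 0. Each of these low IDs had 5 reads or fewer in 156OE replicate 2. Whether these IDs carry a miR156 site was not examined, since no transcript sequences were used here.

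**Figure D2:**
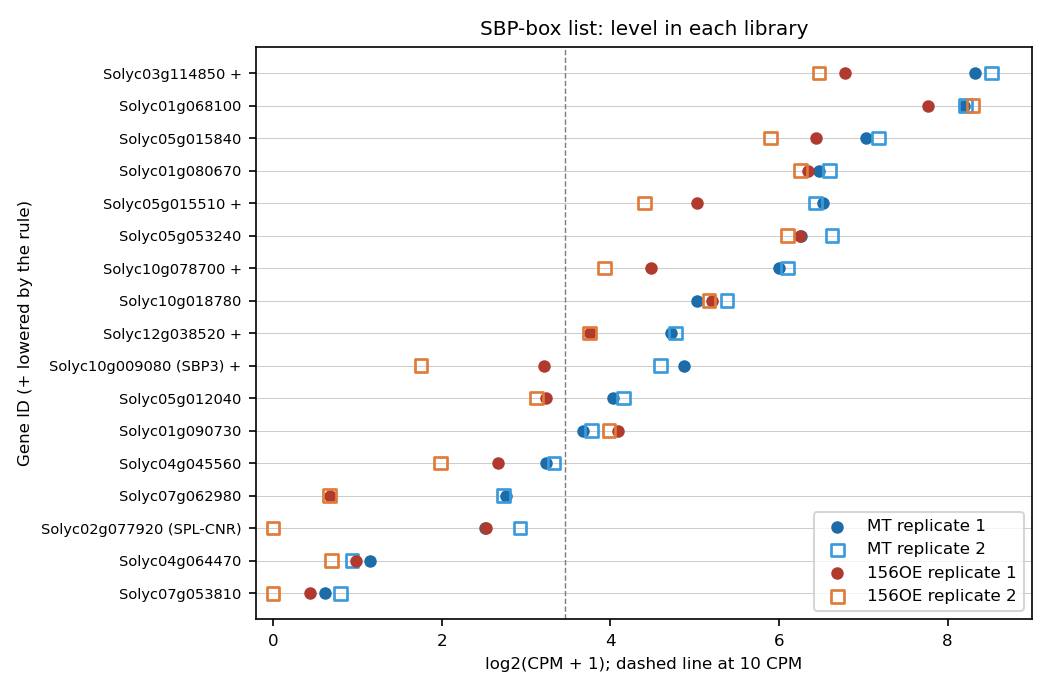
Level of the 17 listed SBP-box IDs in each library as log2(CPM + 1), ordered by the MT mean, with the 10 CPM limit dashed; filled circles are replicate 1 and open squares replicate 2. The rule gives the plus signs and so places both 156OE points of those 5 IDs to the left of MT. Unmarked Solyc07g062980, too low for the rule, also has them to the left, whereas Solyc01g068100 and Solyc10g018780 have points of both genotypes mixed.

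Outside the SBP-box family, 3 of the 35 genes had a checked name, out of 133 genes at 10 CPM or more in MT on 20 other lists (2.26%, beside 0.274% of all genes at that level). These lists were filled after values of the lowered genes were seen, which can raise that share, so nothing is read from it. Those 3 belong to ethylene synthesis, protein folding and sugar supply, and each was the single lowered gene of its list. ACO6 (Solyc02g036350) encodes an ACC oxidase, the enzyme type of the last step of ethylene synthesis. It had 36.5 and 36.8 CPM in MT and 15.8 and 18.0 CPM in 156OE, so the libraries of each genotype lay close together. Of the other ACC oxidase genes at 10 CPM or more in MT, ACO4 (Solyc02g081190) had 36.0 and 37.3 CPM in MT and 38.3 and 23.5 CPM in 156OE, and ACO1 (Solyc07g049530) 18.4 and 13.7 CPM in MT, and 156OE values of 7.56 CPM (replicate 1) and 79.4 CPM (replicate 2). ACO1 moved in opposite directions in the 156OE libraries, unlike ACO6.

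Wiv-1 (Solyc10g083290), also known as LIN6, encodes a cell wall invertase, which splits sucrose outside the cell. ACO6, Wiv-1 and HSP90 were matched to their names after their values were seen. It had 64.5 and 67.9 CPM in MT and 23.5 and 30.3 CPM in 156OE. The log2 difference by edgeR was -1.25 ± 0.20 (SE). Its deposited transcript was the longest of the 35, at 4595 bases, and per length it had 15.7 and 16.7 TPM in MT. That length is long for an invertase transcript, so both the name, which rests on recall and place, and the level per length are uncertain. The invertase gene LIN8 (Solyc10g083300), next to it by ID, was nearly silent, between 0.427 and 1.16 CPM in all libraries. HSP90 (Solyc06g036290), which encodes a chaperone of that family, had 21.6 and 22.1 CPM in MT and 10.4 and 5.34 CPM in 156OE. The far more abundant members of this chaperone family did not halve: HSC80 (Solyc07g065840) had 5211 and 5413 CPM in MT and 4189 and 4340.4 CPM in 156OE. Hsp90-1 (Solyc12g015880) had 626 and 709 CPM in MT and 531 and 456 CPM in 156OE.

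No lowered gene was found among the listed genes at 10 CPM or more in MT for meristem and boundary (8 genes), flowering and inflorescence (8), floral organ MADS-box (9), YABBY and AP2 (7), gibberellin (6), jasmonate (10), auxin (19), photosynthesis (8), cell division (8) or carotenoids (11). The lists for abscisic acid and brassinosteroid (3), cuticle (3), flavonoids (3), TCP genes (1), cytokinin (1) and defence (1) held none either, and no pollen, anther or style gene reached 10 CPM. With 0.274% of all genes lowered, nothing is read from a count of 0 in lists this short. FYFL (Solyc03g006830), a MADS-box gene of the flowering list, missed the 10 CPM limit in MT replicate 2 alone. It had 10.2 and 9.73 CPM in MT and 2.73 and 1.78 CPM in 156OE, and was singled out after its values were seen.

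The remaining 27 genes carry no checked name. Of these, 13 had a 156OE value of at most 0.4 of MT by the rule and are given singly. The lowest were 3 genes close to loss of signal. Solyc03g037490 had 24.4 and 32.0 CPM in MT, from 274 and 300.1 reads, and in 156OE 2.14 CPM (replicate 1) and not a single read (replicate 2), where 3 reads would be 1.78 CPM. Solyc01g105450 had 28.0 and 35.5 CPM in MT and 3.20 and 1.78 CPM in 156OE, the last from 3 reads. Solyc02g082170 had 17.9 and 20.2 CPM in MT and 2.01 and 1.19 CPM in 156OE, the last from 2 reads. In both 156OE libraries these 3 were at 0.106 of the MT mean or less.

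The genotype difference was uneven in 3 further genes. Solyc03g098710, a short transcript of 675 bases, had 163 and 129 CPM in MT, and 156OE values of 38.8 CPM (replicate 1) and 7.71 CPM (replicate 2). Solyc07g061750 had 14.2 and 18.0 CPM in MT, and in 156OE 5.12 CPM (replicate 1) and not a single read (replicate 2). Solyc00g500096 was uneven the other way, with 39.2 and 45.0 CPM in MT, and 156OE values of 2.18 CPM (replicate 1) and 8.90 CPM (replicate 2). The first 2 were lowest in the shallow library and the third in the deeper one.

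The 156OE values were closer together in 7 genes. Solyc04g071800 had 53.6 and 77.7 CPM in MT and 14.5 and 11.3 CPM in 156OE. Solyc06g059870, the shortest of the 35 at 201 bases, had 39.8 and 53.4 CPM in MT and 12.3 and 13.6 CPM in 156OE. Per length it was the most abundant of the 35, with 574 and 821 TPM in MT and 181 and 176 TPM in 156OE. Solyc10g085950 was at 18.2 and 16.5 CPM in MT and 4.86 and 3.79 CPM in 156OE, Solyc01g095960 at 18.3 and 18.6 CPM against 6.04 and 2.97 CPM, and Solyc11g071290 at 17.5 and 20.5 CPM against 5.92 and 2.97 CPM. The last 2 of the 7, Solyc08g016583 and Solyc08g016587, are neighbours and are described with the runs of IDs.

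The other 14 genes without a name lay between 0.4 and the limit of 0.5. Their MT means ranged from 11.2 to 194 CPM with a median of 21.6 CPM, and their ratios to the MT mean from 0.338 to 0.487 in 156OE replicate 1 and from 0.244 to 0.435 in 156OE replicate 2. The highest was Solyc04g078420, with 179 and 208 CPM in MT and 65.4 and 75.9 CPM in 156OE, one of 3 genes of the 35 above 100 CPM in MT. Next came Solyc01g106690, with 73.2 and 74.4 CPM in MT and 34.9 and 29.1 CPM in 156OE. Solyc05g051240 had 53.5 and 52.9 CPM in MT and 20.9 and 23.1 CPM in 156OE. Solyc06g074730, the gene nearest inside the limit, had 58.3 and 55.7 CPM in MT and 27.7 and 24.3 CPM in 156OE, a ratio of 0.498. The gene nearest outside, Solyc06g063120, had 14.6 and 13.02 CPM in MT and 4.15 and 6.53 CPM in 156OE, a ratio of 0.501. Of the rest, Solyc04g039670 had an MT mean of 34.3 CPM, Solyc04g016550 of 23.3 CPM, Solyc08g075670 of 23.2 CPM, Solyc06g082570 of 20.01 CPM and Solyc01g067540 of 19.1 CPM. Solyc04g076500, Solyc09g015457, Solyc03g118140, Solyc08g077170 and Solyc11g012680 had MT means of 13.1, 12.6, 12.2, 11.2 and 11.2 CPM, and each had 9 reads or fewer in 156OE replicate 2.

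Over all 35 genes the MT mean was between 2.07 and 26.4 times the 156OE mean, with a median of 2.996. Relative to the MT mean the median was 0.355 in 156OE replicate 1 and 0.256 in 156OE replicate 2, and 27 of the 35 were lower in the second. Among all 12758 genes, 9169 were also lower in 156OE replicate 2 than in replicate 1. In 20 of the 35 genes the 156OE libraries lay within a factor of 1.5 of each other. The 35 were nonetheless less even than other genes. Their median absolute log2 ratio between the 156OE libraries was 0.418, against 0.274 for all 12758 genes. Each 156OE library alone would have admitted more genes: 67 were at most 0.5 of the lower MT value in 156OE replicate 1 and 397 in 156OE replicate 2, and the 35 are those in both. The counterpart rule, at least 10 CPM in both 156OE libraries and at most 0.5 of that in MT, was met by 57 genes. It starts from the genes at 10 CPM or more in 156OE, another set than the 12758, so 57 and 35 are not compared.

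**Figure D3:**
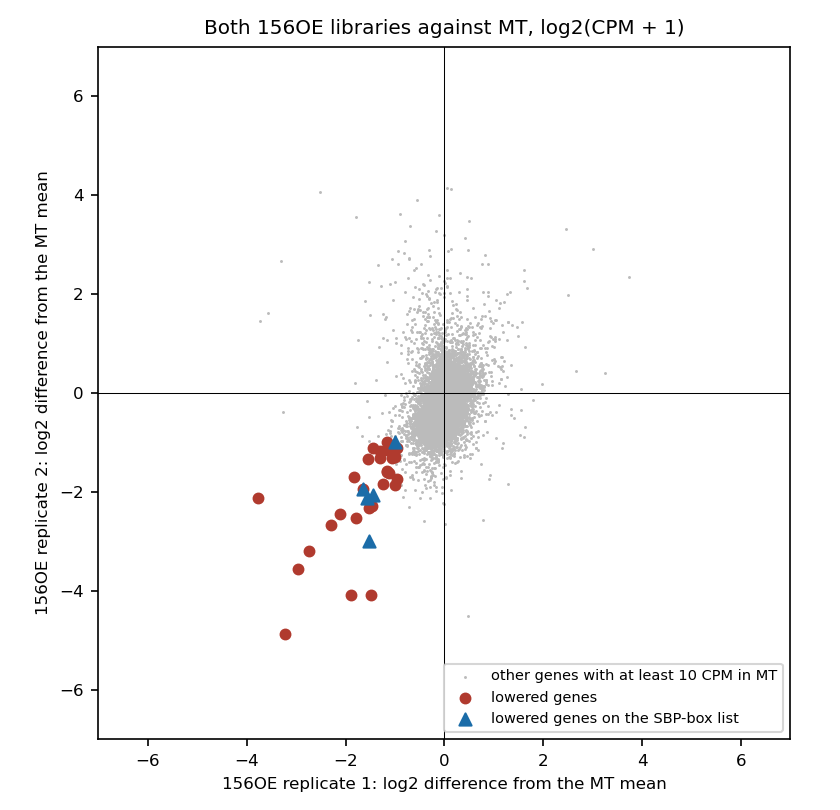
Difference from the MT mean in log2(CPM + 1) for 156OE replicate 1 (horizontal) and 156OE replicate 2 (vertical), for the 12758 genes with at least 10 CPM in both MT libraries; red points are the lowered genes and blue triangles those on the SBP-box list. The rule sets where the red and blue points lie, all at or below -0.95 horizontally and -0.98 vertically, and the grey points spread more widely on the vertical than on the horizontal axis.

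The shallow library limits how well single genes are placed. In 156OE replicate 2 the 35 genes had a median of 12 reads, 15 had under 10 reads, 2 had 1 to 3 reads and 2 had none. The upper limit of the 95% Poisson interval there was at most 0.5 of the lower MT value in 18 genes and above it in 17, among them ACO6, Wiv-1 and Solyc12g038520. edgeR's quasi-likelihood test called 0 genes lower among 18385 tested (0%) at an adjusted p under 0.05, hence none of the 35, with 940 genes lower at an unadjusted p under 0.05. DESeq2 called 63 of 20628 genes lower (0.305%), of which 23 are among the 35. Both tests use the values that chose the genes, so nothing is read from these counts.

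By ID the lowered genes held 1 tandem pair, here meaning neighbours in ID number only, and no longer run. Whether the genes of the pair are alike in sequence or share reads was not examined, since no sequences were used here. In the order of ID numbers 2 of the 35 (5.71%) had another lowered gene next to them. Solyc08g016583, of 960 bases, had 24.8 and 25.6 CPM in MT and 6.63 and 3.56 CPM in 156OE. Solyc08g016587, of 1528 bases, had 39.7 and 46.9 CPM in MT and 8.06 and 5.93 CPM in 156OE. Relative to the MT mean they were at 0.263 and 0.141, and at 0.186 and 0.137, both lower in 156OE replicate 2. Their surroundings were nearly silent: the gene before the pair did not exceed 1.25 CPM and the gene after it 0.355 CPM in any library. The next closest lowered genes on any chromosome, Solyc01g105450 and Solyc01g106690, had 117 genes between them.

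Neighbours that were not lowered genes themselves differed little from other genes in their median. Of the genes directly before or after a lowered gene, 32 had at least 10 CPM in MT, and their median log2 difference between 156OE and MT was -0.18, against -0.10 for all 12758 genes. Of these neighbours 5 (15.6%) had a 156OE mean of at most 0.67 of the MT mean, beside 4.86% of all genes, and 1 was at least 1.5 times as high as in MT. Solyc11g071280, before Solyc11g071290, was the lowest, with 17.9 and 14.6 CPM in MT and 9.01 and 5.34 CPM in 156OE. CrtR-b1 (Solyc06g036260), a carotene hydroxylase gene next to HSP90 by ID, had 48.2 and 47.8 CPM in MT and 28.7 and 20.2 CPM in 156OE. These neighbours were chosen after their values were seen.

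Around Solyc03g118140 3 successive IDs were lower in 156OE. Both 156OE values lay below both MT values in 33.1% of the 12758 genes. The same held for the genes on either side of Solyc06g036290 and of Solyc06g074730, so the stretch is not particular to this place. It was singled out after its values were seen. Solyc03g118140 had 12.6 and 11.7 CPM in MT and 5.81 and 2.97 CPM in 156OE. Solyc03g118150 had 88.9 and 91.1 CPM in MT and 65.1 and 48.7 CPM in 156OE. FALSIFLORA (Solyc03g118160), the tomato LEAFY gene that specifies floral meristems, had 118 and 102 CPM in MT and 66.5 and 41.2 CPM in 156OE, which missed the rule through 156OE replicate 1. The gene beyond it, Solyc03g118170, had 99.0 and 99.2 CPM in MT and 112 and 87.8 CPM in 156OE.

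A pair of the lowered SBP-box genes lie next to MADS-box genes of the SEPALLATA type, which act in floral organ and inflorescence development. Those MADS-box neighbours were below both MT values in 156OE replicate 2 but not in replicate 1. MADS1 (Solyc03g114840), also known as EJ2 and next to Solyc03g114850, had 63.0 and 64.0 CPM in MT, and 156OE values of 94.6 CPM (replicate 1) and 34.4 CPM (replicate 2). On the other side, Solyc03g114860 had 42.8 and 46.6 CPM in MT and 65.9 and 68.3 CPM in 156OE, higher in both. J2 (Solyc12g038510), next to Solyc12g038520, had 72.4 and 63.7 CPM in MT and 68.2 and 48.2 CPM in 156OE. Solyc07g061750 lies near the gibberellin-inactivating genes GA2ox4 and GA2ox5. GA2ox4 (Solyc07g061720) had 6.82 and 5.66 CPM in MT and 37.0 and 4.98 CPM in 156OE. GA2ox5 (Solyc07g061730) had 8.98 and 8.87 CPM in MT and 34.8 and 6.29 CPM in 156OE. Both GA2ox genes were thus above MT in 156OE replicate 1, whereas Solyc07g061750 was below MT in both 156OE libraries. In replicate 2 they rest on 8.4 (GA2ox4) and 10.6 (GA2ox5) estimated reads, too few to settle a direction against MT. Such fractional counts can also hold reads divided between similar genes.

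**Figure D4:**
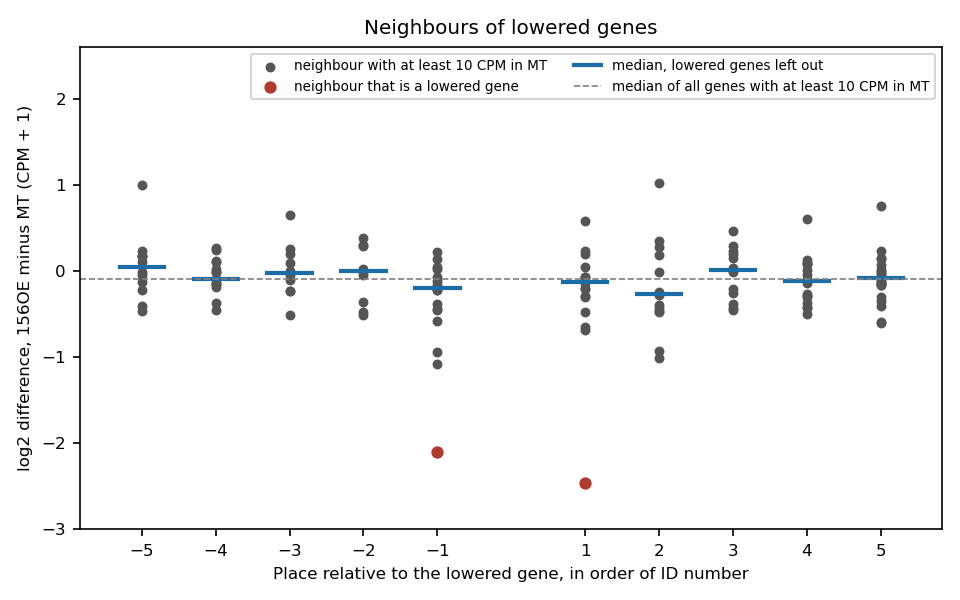
Difference between 156OE and MT means in log2(CPM + 1) for genes with at least 10 CPM in MT that lie up to 5 places before or after a lowered gene in order of ID number; grey points are single neighbours, red points neighbours that are lowered genes, blue bars the medians without them, and the dashed line the median of all 12758 genes. The red points are the tandem pair, and the medians stay between -0.27 and 0.04.

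The 35 genes came from every chromosome. Chromosome 4 held 5 of them, chromosomes 1, 3, 6, 8 and 10 held 4 each, and chromosomes 7, 9 and 12 held 1 each. As a share of the genes at 10 CPM or more in MT this ran from 0.105% on chromosome 7 to 0.489% on chromosome 10. Solyc00g500096 belongs to the IDs numbered 00, which stand for sequence not placed on a chromosome, and is 1 of only 2 such genes at 10 CPM or more in MT. IDs that do not end in 0 made up 4 of the 35 (11.4%) and 1.83% of the 12758 genes, and these 4 are Solyc00g500096, the tandem pair and Solyc09g015457.

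The median deposited transcript length was 1408 bases for the lowered genes and 1673 bases for all genes at this level. The direction of this difference turned at some settings of the rule: the median was 1774 bases at a ratio of 0.67 and 1699.5 bases without 156OE replicate 1, both against 1673 bases. At the other settings the lowered genes stayed shorter, with for example 1149 against 1673 bases at a ratio of 0.4. With at least 20 CPM in MT the medians were 1528 against 1763 bases. Transcripts under 700 bases made up 6 of the 35 (17.1%) and 6.31% of all 12758, and those over 3000 bases 4 of the 35 (11.4%) and 12.7%. The median MT level was 25.8 CPM against 40.0 CPM for all 12758 genes, and per length 28.4 TPM against 29.0 TPM. The shortest were Solyc06g059870, Solyc09g015457 (442 bases), Solyc03g118140 (626 bases), Solyc03g037490 (630 bases), SBP3 (658 bases) and Solyc03g098710 (675 bases).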

How the data were processed

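RNA of floral apices and closed buds was sequenced in 4 libraries, 2 per genotype. Salmon, HISAT2, Trimmomatic, SAMtools and Picard are named in the submitters' processing notes, with neither version nor order. Build and annotation: not given in the sources used here. Deposited files give estimated counts per transcript, not normalized, and TPM values that the authors' Salmon runs scaled by effective length. Salmon divides reads that fit several transcripts, so near-identical genes can share reads. Whether strand was used is not given.

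CPM was the estimated count divided by the library sum, times 1000000. The 35 genes follow the rule stated with the results, whose cap of 300 genes was not reached. Log2 values used a pseudocount of 1. Counts rounded to whole numbers were fitted with edgeR 4.0.16 (R 4.3.3; TMM, filterByExpr, genotype as the only term, Benjamini-Hochberg at 0.05); the SE was the size of the log2 difference over the root of F. The fit was also run on simulated counts with the same spread set for every gene. These libraries need not share that spread, so nothing is read from that run. DESeq2 1.42.0, other scalings, TPM, other limits, a replicate block and leaving out each library were alternatives. An exact permutation test of 2 against 2 cannot give a p below 0.333 and was not used.

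Members, lists and tests were chosen with earlier results of these data known. Named genes are those on a list with a checked symbol or on the SBP-box list, the extremes, the pair of neighbours and the genes at the limit; the remaining members and all neighbours were added after their values were seen. Of 222 recalled pairs of ID and symbol, 220 could be looked up and 210 passed, within 0.03 of a chromosome's gene order; RefSeq's table holds 0 IDs of this kind. Neighbours follow the order of ID numbers. No sequences were used here.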

Additional observations from a re-analysis of the deposited data

How the results depend on the processing

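The number of lowered genes followed the limits. It was 56 with at least 5 CPM in MT, 23 with at least 20 CPM, 17 at a ratio of 0.4, 137 at 0.67 and 63 on TPM, where the median length was 675 bases; the cause of the TPM difference was not tested. Median length was 1774 bases at 0.67 and 1376 to 1699.5 bases with 1 library left out, on both sides of the 1673 bases of all genes. At the other limits and scalings it was below the median of all genes at the same minimum level. With 1 library left out the number of lowered genes ranged from 52 to 300, the last being the cap, reached without 156OE replicate 1. TMM and DESeq2 scaling each kept 29 of the 35. SBP-box IDs among the lowered genes numbered 4 to 7 over all these settings, which were added for this count after seeing the data. Genes lower in 156OE replicate 2 than in replicate 1 numbered 42, 17, 15, 101 and 48 at the same 5 settings, and 40 to 45 without one MT library. Lowered genes next to another numbered 10 at a ratio of 0.67 and 2 to 14 with 1 library left out, and 2 at the other settings, the order of the deposited files included. edgeR called 1 gene in all, 85 without the low-count filter (28 lower) and 0 to 1998 with 1 library left out (0 to 466 lower), and DESeq2 208 (63 lower). With a replicate block edgeR called 0, and 0 with the numbers crossed, a pairing added because the replicate differences of the genotypes correlated at -0.21 across genes; the shared numbers are not stated to pair plants. Depth limits the genes with few reads in 156OE replicate 2.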
